A study of Mus musculus with 44 samples.

Results

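Atf4, Atf5, Ddit3, Ddit4, Ppp1r15a, Ppp1r15b, Ifrd1 and Chac1 are mouse mRNAs of the integrated stress response, most of which are known for upstream open reading frames (uORFs). They were chosen by symbol, through the RefSeq identifier on each row, and are 8 of the 17158 transcripts listed in the processed files. All 8 were found. Messenger RNA abundance, ribosome-protected fragments (RPFs) and poly(A)-tail lengths were measured in mouse neuronal cultures and brain tissue, in 44 libraries. Most groups were a single library per assay, and the visual cortex was the exception, with 4 mice kept in the dark and 4 mice exposed to light.

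The 9 cultures were primary cortical neurons from newborn pups of both sexes, grown with cytosine arabinoside, which kills dividing cells. At 14 days in vitro (DIV14), cultures were unstimulated, or were stimulated with brain-derived neurotrophic factor (BDNF) or with glutamate and glycine (glu/gly), each for 30 min. Lentiviral DIV14 cultures expressed GFP alone, or GFP with miR-1 or miR-155 in its 3′ untranslated region, from the neuronal synapsin promoter. At 10 days in vitro (DIV10), cultures were depolarised with KCl for 10 min or 30 min, or were left unstimulated. Dissected tissue came from the hippocampus of embryos (E16) and of 1 adult male, and from the cortex of 1 adult male. The visual cortex came from mice held in darkness for 1 week, and 4 of them were then given 1 h of light. No mouse line or transgene is named in the labels for these animals, and the paper gives C57BL6J as the strain of the study. Per the study's methods, 6 of the cultures were prepared in batches of 3 that each pooled pups of more than 1 litter, and the labels do not mark the batch, so cultures of a batch are not separate animals and batch cannot be told apart from treatment where cultures of different batches are compared.

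Phosphorylation of the initiation factor eIF2α slows initiation on most mRNAs but lets ribosomes bypass inhibitory uORFs, so that a small set of mRNAs is translated more when translation as a whole declines. ATF4 is the best-known product of this set. It activates a transcriptional program that includes Ddit3, Chac1 and Ppp1r15a, and the last of these encodes a phosphatase subunit that returns eIF2α to its unphosphorylated state. In neurons, phosphorylation of eIF2α is also known for its role in long-lasting synaptic plasticity and memory.

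Depth on genes ranged from 448022 to 7689624 reads in the 12 RNA-seq libraries and from 817114 to 23212489 reads in the 12 RPF libraries. TAIL-seq, used for the cultures and the adult cortex, gave 389654 to 1057812 tags in 10 libraries. PAL-seq v2, used for the hippocampi and the visual cortex, gave 86841 to 4812273 tags in 10 libraries. In RNA-seq, 8 neuronal markers summed to 501 to 965 reads per 1000000 (RPM) in the cultures, whereas 4 oligodendrocyte markers summed to 0.915 to 3.30 RPM in the cultures and to 418 RPM in adult hippocampus, 371 RPM in adult cortex and 6.48 RPM in embryonic hippocampus. The 4 astrocyte markers summed to 131 to 333 RPM in the cultures, a range that held embryonic hippocampus (132 RPM) and adult cortex (173 RPM) and lay under adult hippocampus (393 RPM). The 4 microglial markers summed to at most 3.66 RPM in the cultures and the 2 endothelial markers to at most 1.70 RPM, with 0 reads of Cldn5 in every culture, against 24.3 RPM or more and 3.11 RPM or more in the tissues. The activity-induced gene Fos was 33.6-fold higher after BDNF, 21.5-fold higher after glu/gly and 18.3-fold higher after 30 min of KCl than in the matched unstimulated culture. In 2 RPF libraries from microRNA cultures, the labels contradict themselves. Those libraries entered no fold, TE or test, and their values are set beside the GFP culture only at the end.

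The sequence feature that names this set was read from the transcripts themselves, in the RefSeq annotation of build GRCm38.p6. At least 1 ATG stood upstream of the coding sequence (CDS) in 6 of the 8 mRNAs, and in 49.6% of 16829 transcripts of the files with an annotated 5′ untranslated region. Atf4 (NM_009716, chr15:80255184-80257545, plus strand) has a 5′ untranslated region of 594 nt with 3 upstream ATGs, and its last uORF overlaps the start of the CDS. Such an overlapping uORF occurs in 15.8% of all transcripts, and among the 8 only in Atf4 and Atf5 (NM_030693, chr7:44812256-44815658, minus strand, 6 upstream ATGs in 293 nt). Ifrd1 (NM_013562, chr12:40203129-40223189, minus strand) has a single uORF of 52 codons, which starts 202 nt before the CDS. Ddit3 (NM_007837, chr10:127290793-127296288, plus strand) has 2 in-register upstream ATGs that open the same reading frame. Ppp1r15a (NM_008654, chr7:45522917-45526268, minus strand) and Ppp1r15b (NM_133819, chr1:133131166-133139800, plus strand) have 3 upstream ATGs each. Ddit4 (NM_029083, chr10:59949675-59951770, minus strand) and Chac1 (NM_026929, chr2:119351242-119354326, plus strand) have none, so the annotated transcripts of these genes do not carry an ATG-initiated uORF. Starts at codons other than ATG were not searched. None of the 18 upstream ATGs was in frame with its CDS without an intervening stop.

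The start codons, with 6 bases before and 3 after, are shown because ribosomes choose between uORF and CDS by their context, for which a purine 3 bases before the ATG and a G right after it are the best-known determinants. Capitals mark the ATG and, where a whole short uORF is printed, its stop codon.
Atf4 short uORF of 3 codons, chr15:80255582-80255593: gccaccATGgcgtatTAG
Atf4 overlapping uORF: taagccATGgcg
Atf4 CDS: cacaacATGacc
Atf5 short uORF of 7 codons, chr7:44815531-44815554: agtctaATGatgcggaaggggcacggcTAG
Atf5 CDS: acagccATGtca
Ddit3 first upstream ATG: tatatcATGttg
Ddit3 CDS: gcagtcATGgca
Ppp1r15a last upstream ATG: ggcgacATGaac
Ppp1r15a CDS: agacacATGgcc
Ppp1r15b first uORF of 2 codons, chr1:133131245-133131253: cggcgaATGacgTGA
Ppp1r15b uORF of 8 codons, chr1:133131468-133131494: ATGgtggagcgatctcacacggccTAG
Ppp1r15b CDS: aaggagATGgag
Ifrd1 uORF of 52 codons, chr12:40223000-40223158: agaaacATGtat
Ifrd1 CDS: cccacgATGccg
Ddit4 CDS: cccgccATGcct
Chac1 CDS: ggcaccATGaag
A purine 3 bases upstream was present at 7 of 8 main starts and at 11 of 18 upstream ATGs. Both favourable bases were present at 3 upstream ATGs, of which 2 were in Atf4 and 1 in Ppp1r15b, and at the main starts of Ddit3 and Ppp1r15b. Neither was present at 5 upstream ATGs and at 0 main starts. The uORF of Ifrd1 and its CDS each had the purine but not the G.

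Translational efficiency (TE), the RPM of RPFs divided by the RPM of RNA-seq, was lowest for Atf4, Ppp1r15a, Ddit3 and Ifrd1 and was high for Ddit4. Atf4 lay in the lowest 10% of all genes in all 10 cultures and tissues, and Ifrd1 did so in 9 of 10. Of the mRNAs with no upstream ATG, Ddit4 lay above the median of its sample in all 10 samples at 1 RPM or more. Chac1 did so in the 7 samples where it had at least 1 RPM and 1 RPF. In embryonic hippocampus it passed 1 RPM but had 0 RPFs and so lay on the other side. That library also had 0 RPFs for 68 of 8870 genes with at least 100 reads. Each TE rests on 1 library per assay, so no test could be made, and the intervals given cover counting error only. Both assays counted reads on the CDS without its first 50 nt. Ribosomes on uORFs that end before the CDS therefore did not enter a TE. The overlapping uORFs of Atf4 and Atf5 reach past these 50 nt. That of Atf4 ends at transcript position 677, with the CDS from 595, and those of Atf5 at 349, with the CDS from 294. Ribosomes on their last bases could thus enter the TE of these mRNAs.

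With genes at 10 RPM or more in RNA-seq and at least 1 RPF, 42 TE values were obtained for the 8 mRNAs over the 10 samples, and 35 of them (83.3%) were below the median of the sample, where 50% of all genes lie by definition. The 7 that were above it were all from Ddit4. Atf4 and Ifrd1 gave 10 values each, Ppp1r15b 8, Ppp1r15a 5 and Atf5 2, all below the median, and Ddit3 and Chac1 gave none. Values of the same mRNA in different samples are not independent, so the share describes few mRNAs and is not a test. Within the 10 samples, the number of members with a value was 2 to 6, because most of these mRNAs were scarce.

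Atf4, the transcription factor at the centre of the response, had 181 RNA-seq reads and 90 RPFs in unstimulated DIV14 neurons, and its log2 TE was −2.45 (95% counting interval −2.83 to −2.08) against a median of 1.14 over 5128 genes. Only 0.117% of genes had a lower TE there. The corresponding shares were 0.0576% after BDNF, 0.170% after glu/gly, 0.0222% with GFP, 0.301% in unstimulated DIV10 neurons, 1.54% after 10 min of KCl and 2.46% after 30 min. In tissue the share was 0.538% in adult cortex, 1.505% in embryonic hippocampus and 8.18% in adult hippocampus. Atf4 was thus in the lowest 10% of genes in every sample, with its highest position in the adult hippocampus, where 1358 reads and 1017 RPFs were counted. RNA-seq of the hippocampi was selected by poly(A) tail, and that of the other samples with known preparation was depleted of ribosomal RNA. The part of this difference in the positions was not tested. Relative to the median gene, its log2 TE ranged from −3.85 to −1.81.

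Ifrd1, which encodes a transcriptional coregulator whose uORF has been described in human cells, had 55 reads and 68 RPFs in unstimulated DIV14 neurons. Its log2 TE there was −1.14 (−1.67 to −0.60), and 1.27% of genes had a lower one. The share was 0.576% after BDNF, 1.15% after glu/gly, 0.178% with GFP, 0.964% in unstimulated DIV10 neurons, 1.92% after 10 min of KCl and 3.79% after 30 min. It was 2.93% in embryonic hippocampus, 7.55% in adult cortex and 11.0% in adult hippocampus. Ifrd1 therefore followed Atf4 closely at the low end, with its highest position in the same tissue, under the same difference in RNA preparation. A low position was also seen when Ifrd1 was compared only with genes that have an upstream ATG, of which 0.262% to 16.4% had a lower TE.

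Ppp1r15a encodes GADD34, the stress-inducible subunit that directs protein phosphatase 1 to eIF2α. It passed 10 RPM in 5 samples, and 0.132% to 4.501% of genes had a lower TE in these, with a median of 0.254%. In unstimulated DIV14 neurons it had 24 reads and 16 RPFs. The constitutive partner CReP, encoded by Ppp1r15b, was less extreme: 8 samples gave a value, and 4.35% to 36.4% of genes had a lower TE, with a median of 16.6%. Its log2 TE in unstimulated DIV14 neurons was 0.31 (−0.15 to 0.81), from 49 reads and 166 RPFs. The intervals of the phosphatase subunits did not overlap in that culture, since that of Ppp1r15a ended at −1.06.

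The other transcription factors were too scarce for most samples. Atf5, an ATF4 relative that also has an overlapping uORF, passed the cutoff only in the hippocampi, where 10.6% (adult) and 12.3% (embryonic) of genes had a lower TE. Ddit3, which encodes the pro-apoptotic factor CHOP, passed it in none. With the cutoff lowered to 1 RPM, Ddit3 had a value in all 10 samples, and 0.0878% to 6.23% of genes lay below it. Counts behind these positions were low, such as 19 reads and 13 RPFs in unstimulated DIV14 neurons. In adult hippocampus Ddit3 had 163 reads and 1 RPF. That library also had 0 RPFs for 20 of 8452 genes with at least 100 reads, the embryonic one for 68 of 8870, and the other 8 for 0 genes, and the part of this in the value of Ddit3 was not tested.

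Ddit4 and Chac1 encode effectors: REDD1, an inhibitor of mTORC1, and an enzyme that degrades glutathione. Ddit4 had 30 reads but 619 RPFs in unstimulated DIV14 neurons, a log2 TE of 2.92 (2.39 to 3.50), and 95.1% of genes had a lower one. Over its 7 samples, the share ranged from 85.6% in unstimulated DIV10 neurons to 99.1% in adult hippocampus. Ddit4 was the only member that stood above the median in every sample with a value at this cutoff. Chac1 never reached 10 RPM. At 1 RPM it had a value in 7 samples, from 4 to 28 reads in RNA-seq, and 50.6% to 99.5% of genes lay below it. The hippocampi gave 28 reads and 405 RPFs for Chac1 in the adult, and 19 reads (1.14 RPM) and 0 RPFs in the embryo. A count of 0 gives no TE, but the upper end of its counting interval was a log2 TE of −3.03, against a median of 0.67 over genes in that sample. The embryonic RPF library listed 11880 genes, fewer than the 14168 of unstimulated DIV14 neurons, despite more counts. It also had 0 RPFs for 68 of 8870 genes with at least 100 reads. The part of this in the value of Chac1 was not tested.

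**Figure D1:**
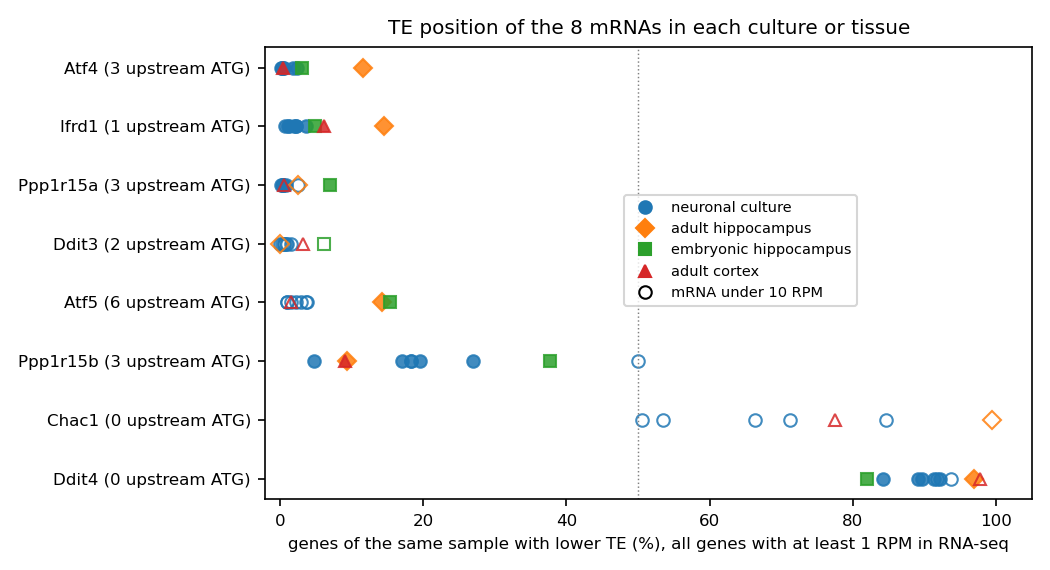
Position of each mRNA in the distribution of TE of its own sample, as the percent of genes at 1 RPM or more with a lower TE (horizontal axis), with 1 point per culture or tissue. Circles are cultures, the diamond adult hippocampus, the square embryonic hippocampus and the triangle adult cortex, and open symbols are mRNAs under 10 RPM. Atf4, Ppp1r15a, Ddit3, Ifrd1 and Atf5 lie at the left edge, Ppp1r15b between 4.80% and 50.01%, and Ddit4 at the right edge between 81.9% and 97.7%.

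At the 1 RPM cutoff all 8 could be ordered by the median share of genes with a lower TE, which was 0.529% for Ppp1r15a, 0.541% for Atf4, 0.757% for Ddit3, 2.22% for Ifrd1, 2.58% for Atf5, 18.3% for Ppp1r15b, 71.2% for Chac1 and 91.5% for Ddit4. The ranges of the first 5 overlapped one another, so their order does not go beyond the spread between samples. The range of Ppp1r15b, 4.80% to 50.01%, overlapped that of each of these 5 and not those of Chac1 and Ddit4. Chac1 and Ddit4 overlapped each other. The values of Chac1 leave out embryonic hippocampus, where it had 0 RPFs.

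Over all genes, TE was lower with more upstream ATGs, by much less than the distance between Atf4 or Ifrd1 and the median. In unstimulated DIV14 neurons the median log2 TE, relative to the median of the sample, was 0.12 for 2552 genes with no upstream ATG, −0.03 for 1106 genes with 1, −0.22 for 529 with 2 and −0.29 for 915 with 3 or more. Ifrd1, with 1 upstream ATG, was at −2.28 in that sample, and Atf4, with 3, was at −3.59. Ppp1r15b also has 3 and was at −0.82. Among members with at least 1 upstream ATG, their number therefore did not order TE. In that sample, with mRNAs under 10 RPM included, the members with at least 1 all lay below the median. Those with none lay above it, Ddit4 at 1.78 from 30 reads and Chac1 at 0.15 from 6 reads. Over all genes, the same steps in adult cortex were 0.33, −0.14, −0.32 and −0.48. Genes share libraries and these medians are given as a description.

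**Figure D2:**
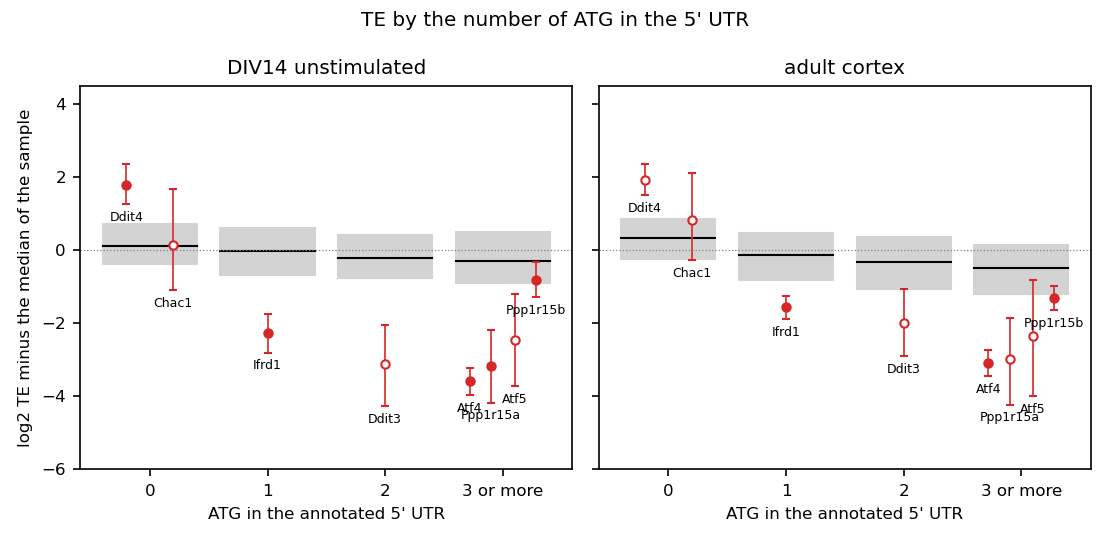
Log2 TE relative to the median of the sample (vertical axis) by number of upstream ATGs in the annotated 5′ untranslated region (horizontal axis), in unstimulated DIV14 neurons and in adult cortex. Grey boxes span the quartiles of all genes with their median as a line, and red points are members with 95% counting intervals, open where the mRNA was under 10 RPM. Atf4, at −3.59 in DIV14 neurons, and Ifrd1, at −2.28, lie far under the box of their class, and Ddit4 lies above the median of the genes with none.

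Other mRNAs described as uORF-controlled were looked at beside them. Of a list of 10, 4 had a TE in unstimulated DIV14 neurons and 3 of those were below the median. Azin1, the antizyme inhibitor, resembled Ifrd1, with 206 reads, 188 RPFs and 0.507% of genes lower, and its position in adult cortex was 9.17%. Mdm2 was at 30.7% and 19.8%, Eprs at 35.9% and 47.3%, and Bace1, which encodes β-secretase, was above the median at 80.1% and 52.5%. Ibtk had too few reads in the culture and was at 3.17% in adult cortex. ATF4 target genes went the other way: 14 of 24 had a TE in unstimulated DIV14 neurons, 3 were below the median, and the median of the list was 0.36 on the log2 scale.

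The hippocampal samples differed in TE for several members, and not in one direction. Relative to the median gene, the log2 TE of Atf4 was −1.81 in the adult and −3.44 in the embryo, and that of Ifrd1 was −1.52 and −2.79. Ppp1r15b ran opposite, at −2.10 in the adult, with 395 reads and 242 RPFs, and −0.35 in the embryo, with 745 reads and 1630 RPFs. The counting intervals of the log2 TE did not overlap between ages for any of these mRNAs. Atf5 was at −1.54 and −1.40. Age cannot be told apart from dissection or library here, since each age is 1 library per assay. Cell composition also differed, with markers of dividing or progenitor cells summing to 519 RPM in the embryo and 17.8 RPM in the adult. The part of this in the TE values was not tested.

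In mRNA level, Atf4 was the most abundant of the 8 in each of the 12 RNA-seq libraries. Per kilobase of the counted CDS, it ranged from 31.8 RPM in adult cortex to 114 RPM after BDNF, with a median of 66.9 RPM. The range of Ifrd1 was narrow, from 14.5 RPM per kilobase in adult hippocampus to 27.8 after BDNF, with a median of 22.3. The medians of the others were 20.3 RPM per kilobase for Ddit4, 15.3 for Ddit3, 9.40 for Ppp1r15b, 5.05 for Ppp1r15a, 4.30 for Atf5 and 2.25 for Chac1. Ranges of neighbours in this order overlapped, except that the lowest value of Atf4 exceeded the highest value of Ifrd1. In bulk samples such as these, fewer cells of a type and less of an mRNA per cell cannot be told apart. RNA of the hippocampi was selected by its poly(A) tail and that of the other samples with known preparation was depleted of ribosomal RNA, so their levels are given side by side only.

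Between the hippocampi, which shared a preparation, Ddit4 in the adult was 0.568-fold (95% counting interval 0.497 to 0.648) its embryonic level, from 348 and 647 reads. Ppp1r15b was 0.560-fold (0.494 to 0.634) and Ifrd1 0.816-fold (0.711 to 0.937). Ddit3 was 1.67-fold (1.30 to 2.16) higher in the adult, and the intervals of Atf4 (0.997-fold), Atf5, Ppp1r15a and Chac1 included 1. None of these folds has a replicate. The tags of PAL-seq gave other values for Ddit3, 0.391-fold from 3 and 3 tags, and for Ppp1r15b, 1.41-fold from 18 and 5 tags. The directions for these mRNAs thus depended on the assay, at counts too low to separate them.

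Across the 12 RNA-seq libraries, the 3 genes whose log2 level followed that of Ifrd1 most closely were Cmpk1 (Pearson r = 0.862), Cyria (0.853) and Lrfn4 (0.847), among 2827 genes at 10 RPM or more in each library. For Atf4 they were Rab12 (0.899), Polr2g (0.893) and Eid1 (0.880), and between Atf4 and Ifrd1 r was 0.580. The 12 points mix cultures, tissues and RNA preparations, and the correlations are descriptions.

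Stimulation of cultured neurons moved few of these mRNAs past 2-fold, and the one that did so most often was Ppp1r15a. Folds were computed from reads or tags per reads or tags on genes, for genes with at least 20 counts in the pair, with 1 library on each side. BDNF, glu/gly and GFP cultures were compared with the same unstimulated DIV14 culture, both KCl times with the same unstimulated DIV10 culture, and miR-1 and miR-155 with the same GFP culture, so members of each set are not independent of one another.

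In most comparisons no member was past 2-fold, among backgrounds that differed by assay. After BDNF, 0 of 6 members were past 2-fold in RPFs, beside 0.845% of genes higher and 3.09% lower, and in tags 2.15% of genes were lower. After glu/gly, 0 of 7 were so in RNA-seq, beside 3.13% higher and 2.98% lower, 0 of 8 in RPFs, beside 0.812% and 2.92%, and 0 of 8 in tags, where 2.0% were lower. With 6 to 8 members tested, fewer than 1 would be past 2-fold at any of these shares. After 10 min of KCl, 0 of 7 were so in RNA-seq, beside 1.21% and 2.97%, and 0 of 8 in tags, beside 1.91% and 2.15%, while 1.37% of genes were higher in RPFs. After 30 min it was 0 of 8 in RPFs, beside 1.61% and 6.2%, and in tags 2.4% of genes were lower. With GFP, the shares of genes higher were 1.95% in RNA-seq, 1.12% in RPFs and 2.85% in tags, and 0 members were. The shares lower with miR-1 and miR-155 were 3.6% and 2.97% in RNA-seq and 4.38% and 3.38% in tags, and again 0 members were.

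In the tail tags, Ppp1r15a had 62 tags after BDNF and 30 without, and was 2.04-fold (1.30 to 3.26) higher, the only 1 of the 8 members past 2-fold, against 1.08% of 8876 genes that were higher by that much. In RNA-seq, 41 and 24 reads gave 1.81-fold (1.07 to 3.14), and 0 of 6 members were past 2-fold in a comparison where 1.61% of genes were higher and 2.71% were lower. After glu/gly, the tags of Ppp1r15a were just under 2-fold, at 46 and 30 tags (interval 1.24 to 3.28), and 1.19% of genes were higher past 2-fold. RNA-seq gave 1.41-fold (0.8293 to 2.44). The immediate transcript level of this phosphatase subunit was thus above the control in both assays with either stimulus, but the RNA-seq interval with glu/gly included 1.

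After 30 min of KCl, Ppp1r15a had 65 tags and 21 without, which is 2.41-fold (1.45 to 4.15), where 2.64% of genes were higher past 2-fold, and RNA-seq gave 1.97-fold (1.32 to 2.95). After 10 min its folds were 1.10 (0.578 to 2.11) in tags and 1.122 (0.649 to 1.89) in RNA-seq. The intervals in these assays left out 1 at the later time only, although the difference between the times was not tested. On the deposited RPM scale the RNA-seq fold after 30 min was 1.39, and with scaling by the median of ratios it was 2.05. With 15 and 37 RPFs, its fold in RPFs after 30 min was 1.26 (0.643 to 2.35).

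Ddit3 and Ddit4 lay on opposite sides after 30 min of KCl in RNA-seq. Ddit3 was 1.96-fold (1.26 to 3.10) from 49 and 37 reads, and Ddit4 was 0.535-fold (0.353 to 0.795) from 35 and 97 reads. Neither passed 2-fold, where 2.5% of genes were higher and 7.94% were lower. These calls depended on the scaling: on the deposited RPM scale Ddit4 was 0.378-fold, past 2-fold, and Ddit3 1.39-fold, and by the median of ratios Ddit3 was 2.05-fold and Ddit4 0.558-fold. Tail tags did not repeat them: Ddit3 was 0.571-fold (0.237 to 1.33) and Ddit4 0.834-fold (0.649 to 1.07).

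Atf4 was 1.47-fold (1.21 to 1.78) higher after BDNF in RNA-seq and 1.17-fold (1.05 to 1.32) higher in tags. After 30 min of KCl, it was 1.31-fold (1.13 to 1.52) in RNA-seq, 1.83-fold (1.49 to 2.23) in RPFs, from 155 and 264 RPFs, and 1.28-fold (1.10 to 1.48) in tags. On the deposited RPM scale the RNA-seq fold after 30 min was 0.927, below 1. Reads on genes made up 13.8% of the total of that library and 19.5% of that of its control. Ifrd1 was 1.52-fold (1.07 to 2.19) after BDNF in RNA-seq and 1.03-fold (0.804 to 1.32) in tags. Its folds after 30 min of KCl were 1.121 in RNA-seq, 1.13 in RPFs and 1.11 in tags, each with an interval that included 1, and the RNA-seq fold was 0.792 on the RPM scale. After each stimulus, the interval of Ifrd1 thus left out 1 in at most 1 of the 3 assays.

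Ppp1r15b, the constitutive phosphatase subunit, was the exception in ribosome occupancy. After 10 min of KCl it had 88 RPFs, against 354 in the control, and was 0.427-fold (0.334 to 0.541), while its RNA-seq level was 1.504-fold (1.06 to 2.13) from 57 and 85 reads. In RPFs it was the only 1 of 8 members past 2-fold, and 6.28% of 12661 genes were lower by that much. Its log2 TE was 0.64 in the control and −1.52 after 10 min, a difference of −2.17, whereas the median difference of all genes was −0.41. Only 0.676% of genes had a larger decrease in TE. A TE lower by more than 2-fold was found for 14.9% of the 4734 genes compared, and for 1 of the 4 members with a value. Ifrd1 had a difference of −0.89, with 78 and 201 RPFs and an RPF fold of 0.667 (0.507 to 0.870). Atf4 was at −0.37 and Ddit4 at 0.18. Relative to the median gene, the difference was −1.76 for Ppp1r15b, −0.49 for Ifrd1, 0.04 for Atf4 and 0.59 for Ddit4, and 18.6% of genes had a lower difference than Ifrd1, so that among the members only Ppp1r15b stood far from the other genes.

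After 30 min of KCl, the RPF fold of Ppp1r15b was 0.588 (0.446 to 0.766), from 67 RPFs, and its mRNA was under 10 RPM, so no TE difference was obtained. TE of Atf4 was 0.92 higher on the log2 scale, at −1.08 against −1.996, with a median shift of 0.32 over 3535 genes, and that of Ifrd1 was 0.45 higher. Neither passed 2-fold, which 8.26% of genes did upward and 1.78% downward. With BDNF, all 5 members with a value had a lower TE, by differences of −0.63 (Ppp1r15a), −0.62 (Ifrd1), −0.45 (Ddit4), −0.35 (Atf4) and −0.19 (Ppp1r15b), beside a median of −0.11. None passed 2-fold, as did 0.723% of genes downward and 0.0638% upward. With glu/gly the values ran from −0.64 (Ddit4) to 0.10 (Atf4) beside a median of −0.30, and none passed 2-fold, as did 4.1% of genes downward and 0.0634% upward. With GFP, Ifrd1 differed by −0.76, lower than all but 1.28% of genes, and Atf4 by −0.12, beside a median of 0.13. Neither passed 2-fold, as did 0.327% of genes downward and 1.33% upward.

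The lentiviral cultures held most of the remaining values past 2-fold, on very few counts. With GFP, Ppp1r15b was 0.487-fold (0.277 to 0.827) in RNA-seq, from 21 and 49 reads, where 3.64% of genes were lower past 2-fold. Ppp1r15a was 0.357-fold (0.0913 to 1.01) in tags, from 4 and 30 tags, and 0.368-fold (0.0894 to 1.14) in RPFs, from 4 and 16. The share of genes lower past 2-fold was 5.33% in tags and 4.77% in RPFs. Against this GFP culture, Ppp1r15a had 22 tags with miR-1, 4.80-fold (1.63 to 19.2), and 19 tags with miR-155, 3.86-fold (1.28 to 15.6). The shares of genes higher past 2-fold were 2.82% and 2.75%. Both folds rest on the 4 tags of the same control. RNA-seq gave 1.62-fold and 1.59-fold for Ppp1r15a with intervals that included 1, and 0 of the members tested there were past 2-fold, beside 2.92% and 4.12% of genes higher. Ppp1r15b was 1.70-fold (1.04 to 2.89) with miR-1 and 1.78-fold (1.13 to 2.95) with miR-155 in RNA-seq, again against the GFP culture.

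Other genes of the pathway are given from lists of eIF2α kinases, eIF2 and eIF2B subunits, ATF4 target genes and genes of the endoplasmic reticulum (ER) stress response. Of the 17 ATF4 targets tested in RNA-seq after BDNF, 1 was higher past 2-fold and 0 were lower, beside 1.61% and 2.71% of all genes. After glu/gly it was 1 higher and 1 lower of 17, beside 3.13% and 2.98%. After 30 min of KCl it was 2 higher and 2 lower of 21 in RNA-seq, beside 2.5% and 7.94%, and 2 higher and 0 lower of 23 in RPFs, beside 1.61% and 6.2%. Counts this small are given as values and say nothing of the list. Atf3, a transcription factor induced by both stress and activity, had 29 RPFs after BDNF and 5 in the control, 6.80-fold (2.60 to 22.5), and 32 RPFs after glu/gly, 9.87-fold (3.82 to 32.5). Its tags were 6.57-fold (1.95 to 34.5) and 10.0-fold (3.02 to 52.0) higher. After BDNF, Cebpb, another stress-related transcription factor, was 3.18-fold (1.10 to 11.2) in RNA-seq. After 30 min of KCl, Sesn2 was 0.270-fold (0.133 to 0.503) and the amino-acid transporter Slc7a5 0.421-fold (0.246 to 0.691) in RNA-seq, and Cebpg, the dimer partner of ATF4, was 2.67-fold (1.17 to 6.47). The cystine transporter Slc7a11 was 2.83-fold (2.18 to 3.69) and Trib3 2.59-fold (1.00 to 6.54) in RPFs. With miR-155, the serine-synthesis gene Psph was 0.404-fold (0.257 to 0.646) in RNA-seq and 0.480-fold (0.222 to 0.995) in tags.

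The genes below were named because they were past 2-fold, and counts this small say nothing of their lists. Among the kinases, Eif2ak4 (GCN2) was 2.12-fold (1.08 to 4.36) after BDNF in RNA-seq, 1 of 4 tested, beside 1.61% of all genes higher. Eif2ak2 (PKR) was 0.424-fold (0.204 to 0.931) with miR-155 in RNA-seq, 1 of 4, beside 2.97% lower. Among the subunits, Eif2b3 was lower in RNA-seq after BDNF, at 0.386-fold (0.181 to 0.767), after glu/gly, at 0.487-fold (0.262 to 0.882), and with GFP, at 0.482-fold (0.238 to 0.925), all against the same 33 reads of the control. It was 1 of 7 tested each time, beside 2.71%, 2.98% and 3.64% of genes lower. Eif2s3x was 0.367-fold (0.164 to 0.744) in RPFs after glu/gly, 1 of 8, beside 2.92% of genes lower. Its tags were 2.87-fold (1.19 to 7.91) with miR-1 and 2.55-fold (1.05 to 7.07) with miR-155, against the same 7 tags of the GFP culture. In these, 2.82% and 2.75% of genes were higher past 2-fold. Of the ER stress genes, Edem1 was 0.428-fold (0.212 to 0.808) in RNA-seq after 30 min of KCl, 1 of 8, beside 7.94% of genes lower. Sdf2l1 was 0.175-fold (0.0331 to 0.601) in tags after 10 min, 1 of 7, beside 2.15% lower. Of other uORF-controlled mRNAs, Azin1 was 0.497-fold (0.412 to 0.597) in RPFs after 10 min of KCl, from 151 and 522 RPFs. It was 1 of 7 tested, beside 6.28% of genes lower, which include Ppp1r15b. Cebpa was 0.311-fold (0.0607 to 1.00) in RPFs after 30 min, from 3 and 30 RPFs, 1 of 7, beside 6.2% lower.

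Poly(A) tails, which protect mRNAs from decay, were long for Atf4 and Ifrd1 and, in the cultures, short for Atf5 and Ppp1r15b. In the 10 TAIL-seq samples, with at least 50 tags required, the mean tail of Atf4 was 126 to 144 nt, with a median of 138 nt, and 95.6% to 99.8% of genes had a shorter one. In unstimulated DIV14 neurons it was 138 nt from 548 tags, and the median gene had 112 nt. Atf4, the mRNA with nearly the lowest TE, thus had nearly the longest tail of the genes measured. Ifrd1 passed in 7 samples, with tails of 114 nt after BDNF to 132 nt after glu/gly, and 60.6% to 97.2% of genes had a shorter tail, with a median of 86.4%. Ddit4 was moderately long at 98.0 to 121 nt, and 42.1% to 84.6% of genes were shorter in 10 samples.

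Atf5 had tails of 85.9 to 103 nt in 6 samples, and 7.49% to 23.5% of genes had a shorter one. Ppp1r15b, in 3 samples, had 92.0 to 104 nt, and 9.82% to 25.05% of genes were shorter. The stress-inducible Ppp1r15a reached 50 tags in only 2 samples, at 153 nt after BDNF and 131 nt after 30 min of KCl, where 99.7% and 96.5% of genes were shorter. With 30 tags in the unstimulated DIV14 culture its mean was 131 nt, and with 21 tags in the unstimulated DIV10 culture 115 nt. After glu/gly it was 143 nt from 46 tags. After 10 min of KCl, when its level was not raised, it was 126 nt from 22 tags. Its mean was thus above that of the matched unstimulated culture after each of these 4 stimuli, from few tags and with no test possible. In the visual cortex it reached 50 tags in 2 mice, at 124 nt in dark mouse 2, where 99.3% of genes were shorter, and at 77.9 nt in light mouse 4, where 34.9% were, so its position was not long in every sample. Ddit3 and Chac1 never reached 50 tags in TAIL-seq. In PAL-seq of adult hippocampus, the tail of Atf4 was 91 nt from 81 tags, with 99.2% of genes shorter, and the other members were under 50 tags. The embryonic hippocampus had too few tags for any member. The hippocampal files do not name the summary of tail length that they give, so only positions within a sample are compared.

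**Figure D3:**
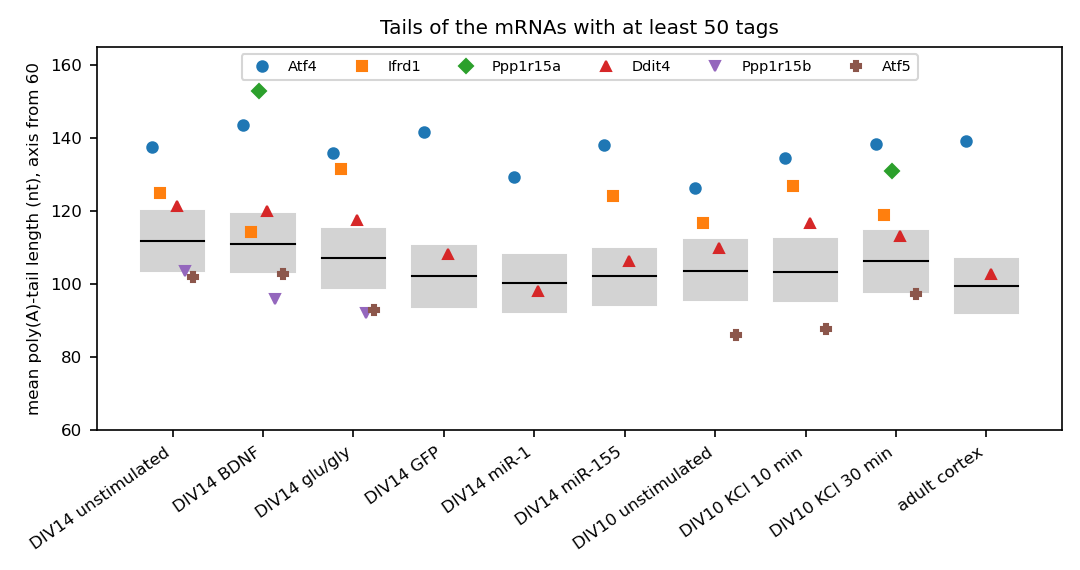
Mean poly(A)-tail length in nt (vertical axis, which starts at 60 nt) of the members with at least 50 tags in the 9 cultures and the adult cortex (horizontal axis), with 1 point per mRNA and library. Grey boxes span the quartiles of all genes with at least 50 tags. Atf4 lies between 126 and 144 nt, above the box in every sample, and Atf5, between 85.9 and 103 nt, lies below it in each of its 6 samples.

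Light was the comparison with replicate animals. After 1 week in the dark, 1 h of light raised the tags of Ifrd1 and Atf4 in the visual cortex, and these were the 2 of 8 members that passed the test (edgeR quasi-likelihood test, adjusted p under 0.05), in a comparison where 116 of 9554 genes, or 1.21%, rose and 12, or 0.126%, fell. The median log2 difference of the 8 members was 0.49, against 0.00 over all genes. The members were chosen with earlier results of these data known. Their calls and median are therefore a description and no test of the set. Fos, which reports neuronal activity, rose from 57.5 ± 64.1 to 765 ± 224 counts per 1000000 (CPM, SD, n = 4 mice in each group; edgeR adjusted p = 1.42e-06), Arc from 89.7 ± 99.5 to 807 ± 305 CPM (edgeR adjusted p = 2.49e-05) and Npas4 from 6.24 ± 5.05 to 37.9 ± 15.05 CPM (edgeR adjusted p = 5.17e-05).

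Ifrd1 had 62.8, 59.5, 55.02 and 43.4 CPM in the 4 dark mice and 86.1, 121, 141 and 85.5 CPM in the 4 light mice. Every light mouse was above every dark mouse, as it was for 3.13% of all genes. The means were 55.2 ± 8.47 and 108 ± 27.4 CPM (SD, n = 4), a rise of 0.96 ± 0.16 on the log2 scale (SE), or 1.94-fold (edgeR, adjusted p = 0.000608). Among the 116 genes that rose, it was the 83rd by size.

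Atf4 had 328, 301, 241 and 323 CPM in the dark and 388, 481, 521 and 372 CPM in light. The groups did not overlap for Atf4 either. Its means were 298 ± 39.9 and 440 ± 72.0 CPM (SD, n = 4), a rise of 0.56 ± 0.11 on the log2 scale, or 1.47-fold (edgeR, adjusted p = 0.00707). This call was lost when light mouse 3, the one with the most Atf4, was left out (edgeR, adjusted p = 0.0621).

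Chac1, a transcriptional target of ATF4, had the opposite sign: 37.2, 26.1, 37.4 and 30.8 CPM in the dark and 13.1, 22.6, 23.7 and 20.5 CPM in light. The groups did not overlap, with every dark mouse above every light mouse, as in 2.32% of all genes. Its log2 difference was −0.67 ± 0.22 (SE), which did not pass the test over all genes (edgeR, adjusted p = 0.189).

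The remaining members did not pass either. Ddit3 had 20.3, 18.6, 14.5 and 16.6 CPM in the dark and 25.4, 46.4, 37.6 and 15.7 CPM in light, so that 3 light mice exceeded all dark mice and light mouse 4 was among the dark ones. Its log2 difference was 0.82 ± 0.26 (edgeR, adjusted p = 0.187), and without light mouse 4 it was 1.06 (edgeR, adjusted p = 0.0110). Ppp1r15a was at 14.4 ± 4.29 and 24.0 ± 6.65 CPM, a log2 difference of 0.77 ± 0.26 (edgeR, adjusted p = 0.237), with overlapping groups. Ppp1r15b was at 74.8 ± 5.44 and 101 ± 20.7 CPM, a difference of 0.43 ± 0.14 (edgeR, adjusted p = 0.186). Ddit4 was at 64.6 ± 11.5 and 49.8 ± 6.97 CPM (log2 difference −0.37; edgeR, adjusted p = 0.438) and Atf5 at 40.9 ± 3.08 and 38.9 ± 5.73 CPM (−0.08; edgeR, adjusted p = 0.933). Of the other pathway lists, 0 of 3 eIF2α kinases, 0 of 7 eIF2 and eIF2B subunits, 0 of 20 ATF4 targets and 0 of 9 other uORF-controlled mRNAs passed in either direction. Of 8 ER stress genes, Hspa5, which encodes the ER chaperone BiP, rose from 465 ± 65.2 to 654 ± 112 CPM (edgeR, adjusted p = 0.0259). No gene of the 6 cell type marker lists passed. The summed oligodendrocyte markers ranged from 578 to 931 CPM in the dark and from 384 to 716 CPM in light, and their part in the values of the members was not tested.

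**Figure D4:**
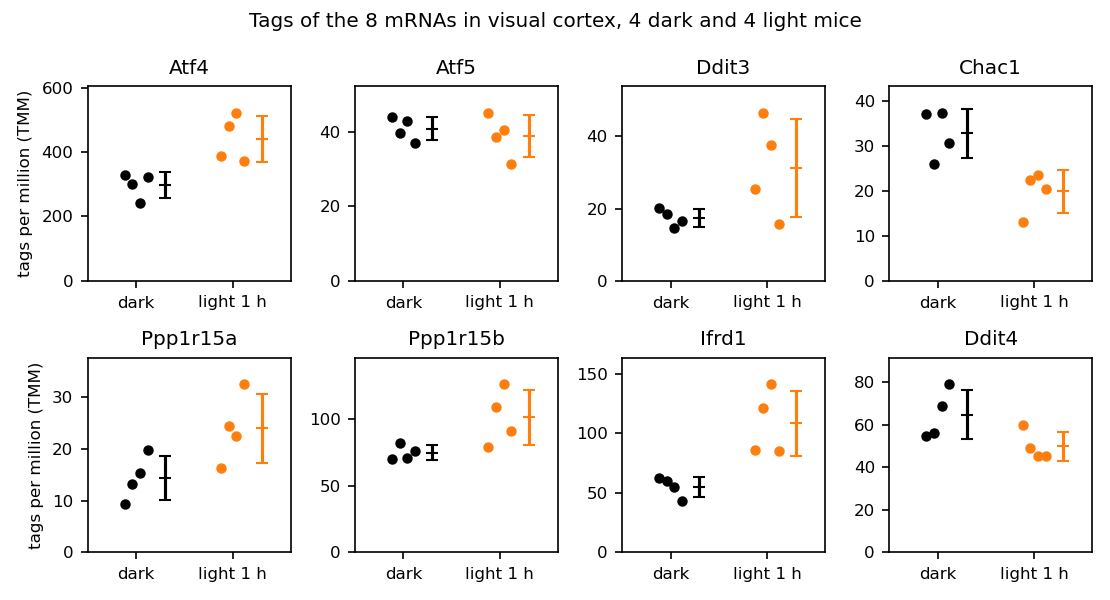
Tags per mouse in CPM (vertical axes, each starting at 0) for the 8 mRNAs in the visual cortex of 4 dark and 4 light mice, with the mean and SD of each group beside the points. The groups do not overlap for Ifrd1 and Atf4, where light is higher, nor for Chac1, where light is lower with an adjusted p of 0.189 in the edgeR test.

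The tails of Ifrd1 were also longer on average in light, by an amount that depended on single mice. Mean tails were 130, 101, 77.9 and 102 nt in the 4 dark mice and 109, 148, 148 and 122 nt in the 4 light mice. Only light mice 2 and 3 exceeded every dark mouse, so the groups overlapped. The means were 103 ± 21.1 and 132 ± 19.4 nt (SD, n = 4), a difference of 29.6 nt (limma, SE 6.68 nt, adjusted p = 0.0208), and 10 of 4321 genes, or 0.231%, were called longer and 0 shorter. The difference for Ifrd1 was the second largest of the 10, and 7 of these 10 genes had also risen in tags in the same libraries. The exact two-sided permutation test over the 8 mice gave p = 0.0857, where the smallest possible value is 0.0286. The limma fit gave every gene the same SE, whatever its own spread between mice. Every light mouse was above every dark mouse in tail length for 0.602% of genes, and Ifrd1 was not among them. In the same mice, the median tail over all genes was 92.4, 90.7, 77.5 and 80.01 nt in the dark and 83.3, 94.1, 97.5 and 81.7 nt in light, and it was thus longest in light mice 2 and 3. After subtraction of these medians the difference was 25.6 nt and was no longer called (limma, adjusted p = 0.274). It was also not called without dark mouse 2 (29.0 nt), dark mouse 3 (21.4 nt), dark mouse 4 (29.4 nt), light mouse 2 (24.1 nt) or light mouse 3 (24.2 nt), and it was called without any one of the other 3.

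The tail of Ppp1r15b was 70.9 ± 4.84 nt in the dark and 87.0 ± 10.0 nt in light, and 3 light mice exceeded every dark mouse, but the difference of 16.1 nt did not pass (limma, adjusted p = 0.999; exact permutation p = 0.0857). Atf4, at 112 ± 8.78 and 120 ± 9.34 nt, and Ddit4, at 88.3 ± 7.65 and 96.3 ± 8.98 nt, had overlapping groups and did not pass. The other 4 members were under 50 tags in at least 1 mouse. In position, Atf4 was long in every mouse, with 97.8% to 99.6% of genes shorter, as it was in the cultures. That share for Ppp1r15b ran from 3.95% to 56.9%, and that for Ifrd1 from 52.2% in dark mouse 3 to 99.9%. In mice with at least 50 tags, the share was 11.8% to 38.2% for Atf5 in 7 mice. It was 93.7% to 99.3% for Ddit3 in 3 mice, and 31.9% and 92.6% for Chac1 in 2.

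**Figure D5:**
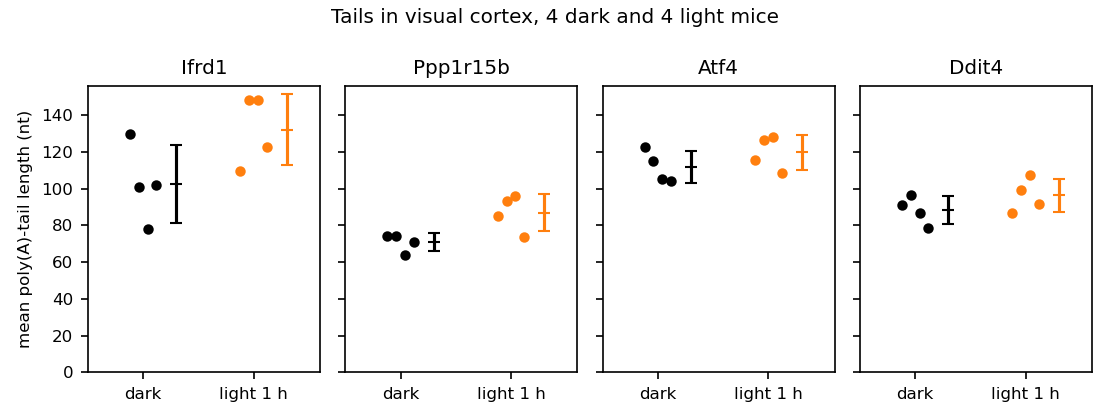
Mean poly(A)-tail length in nt (vertical axes) per mouse for Ifrd1, Ppp1r15b, Atf4 and Ddit4, the members with at least 50 tags in all 8 mice, in 4 dark and 4 light mice, with the mean and SD of each group. For Ifrd1, light mice 2 and 3 at 148 nt stand above all dark mice, of which mouse 1 at 130 nt is the highest, and the groups overlap in all 4 panels.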

How the data were processed

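RNA-seq and RPF reads were mapped by the authors to mm10 with STAR 2.4.2, and the deposited files hold raw counts of reads and RPM per transcript. Counted length equalled the CDS less 50 nt for 98.7% of 16716 transcripts and for all 8 members. The deposited log2 TE column of the authors was used only as an alternative. TAIL-seq and PAL-seq v2 files hold deposited counts of tags and 1 tail length per transcript, headed as a mean except in the hippocampal files, which do not name the summary.

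TE was computed from RPM for genes at 10 RPM or more. Sequences were read from the RefSeq annotation of GRCm38.p6, which named 17010 of 17158 identifiers. Counting intervals are exact (Clopper-Pearson, 95%). Light was tested with the quasi-likelihood test of edgeR 4.0.16 (TMM scaling, low counts removed by filterByExpr) for tags and with limma 3.58.1 for tail lengths of genes with at least 50 tags in each mouse, with Benjamini-Hochberg adjustment over all genes (R 4.3.3, Python 3.11.15). Both tests were tried on simulated data first. DESeq2 1.42.0 was an alternative. Precision is limited by depth, with as few as 1 read behind a member's value.

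All 8 members were named where they passed a filter. Of other lists, genes were named that passed the light test or, without replicates, were past 2-fold with an interval that left out 1, at most 4 per list, beside the 3 genes most like Ifrd1 and Atf4 and the activity markers Fos, Arc and Npas4. Members and lists were chosen with earlier results of these data known. Groups came from the labels, and 2 RPF libraries stayed without a group. Alternative cutoffs, scalings, tests and left-out mice are covered at the end. P-values for tags in the light comparison measure spread between mice. The limma p-values for tails rest on an SE shared by all genes, so they do not measure the spread of a gene's own mice.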

Additional observations from a re-analysis of the deposited data

Results flagged for a closer look

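In 2 RPF libraries of microRNA cultures the title and the code name different microRNAs, so they belong to no group. Members whose 95% counting interval lay wholly above that of the GFP culture are given here as values only. In the first, with 817114 counts on genes, Atf4 was at 20.6 RPM (GFP culture 8.002), Ddit4 at 113 RPM (60.8) and Ifrd1 at 24.3 RPM (6.27). In the second, Ifrd1 was at 15.5 RPM and Ppp1r15b at 32.3 RPM (GFP culture 21.2). Other members were also above GFP with overlapping intervals, such as Chac1 at 13.1 RPM (5.62) and Ppp1r15b at 27.1 RPM in the first, and Atf4 at 12.4 RPM and Ddit4 at 72.6 RPM in the second. No test was made. Among the 24 groups of 4 mice examined, no single mouse stood apart for a member's tags or tail.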

How the results depend on the processing

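The rise of Ifrd1 in tags held under all 12 alternatives (log2 difference 0.81 to 1.07, edgeR or DESeq2 adjusted p 3.92e-08 to 0.00614), and that of Atf4 under 11 of 12 (0.47 to 0.64, adjusted p 2.77e-05 to 0.0621, the loss being without light mouse 3). Ddit3 was called without a filter on low counts (adjusted p = 0.0416) and without light mouse 4. Genes that fell in light numbered 12, or 30 without the filter, and 6 to 20 with a mouse left out. Genes that rose numbered 94 to 130 with a mouse left out, and members called 1 to 3. The longer tail of Ifrd1 was called in 3 of 13 alternatives. It was not called with at least 20 tags (29.6 nt, limma adjusted p = 0.201), on the log2 scale (0.38, adjusted p = 0.279), by the exact permutation test (p = 0.0857) or centred on each mouse's median (25.6 nt, adjusted p = 0.274), a setting chosen after seeing the data. Leaving out a mouse gave 21.4 to 38.6 nt (adjusted p 4.12e-05 to 0.895). Tails called longer numbered 5 with at least 20 tags, 1 on the log2 scale, 3 when centred and 1 to 21 with a mouse left out, and tails called shorter 3 with at least 20 tags and 0 to 6 with a mouse left out. Members called in tails were 0 with 20 tags, 100 tags, log2, or centring, and 0 or 1 with a mouse left out. Ifrd1 was not tested at 100 tags, since dark mice had fewer.

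Replicate numbers did not pair the mice (correlation of same-numbered mice at most 0.0405). With the replicate block, the tail of Ifrd1 differed by 29.6 nt (adjusted p = 0.0946), 1 tail was called longer and 0 members, whereas tags gave 103 genes higher and 10 lower, with Ifrd1 and Atf4 (adjusted p = 0.0462) among them.

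Without replicates, RNA-seq member values past 2-fold were 1, or 5 on the RPM scale and 3 by median of ratios. RPF values went from 2 to 1 and tag values from 5 to 2 with at least 50 counts. The TE difference of Ppp1r15b was not computed at 30 RPM, which left 0 past 2-fold. Of the pooled member values of TE, 92.9% were below the median at 30 RPM, 76.6% at 1 RPM and 82.5% with the authors' TE. By tail tags, adult over embryonic hippocampus was 0.326-fold for Atf5, 0.317 for Ddit4 and 0.685 for Ifrd1, and lay on the other side of 1 from RNA-seq for Ddit3 (0.391), Ppp1r15b (1.41), Atf4 (1.09) and Ppp1r15a (1.17), where the RNA-seq intervals of the last pair included 1. The causes were not tested. Depth limited Ddit3, Atf5 and Chac1 most.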
